A study of Mus musculus with 10 samples.

Results

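Stab1, Stab2, Mrc1, Fcgr2b, Lgmn, Dnase1l3 and Clec1b are 7 genes of receptors and enzymes. Most are known to help sinusoidal endothelial cells (ECs) bind, take up or break down material from blood. They were chosen by name as sinusoidal scavenger and clearance genes, and their unique molecular identifier (UMI) counts were followed in 10 single-cell RNA sequencing (scRNA-seq) libraries of mouse femur and tibia, in which 22828 genes were kept. All mice were C57BL/6 with the Cdh5-mTnG reporter, which marks cells that use the endothelial Cdh5 promoter with tdTomato and GFP, and cells positive for both colours were sorted after lineage depletion. The 5 groups of 2 libraries were juvenile (3 weeks, both sexes), adult (12 weeks, female), aged (75 weeks, female), and 12-week-old females given parathyroid hormone (PTH), which stimulates bone formation, or alendronate, a bisphosphonate that slows bone resorption. The adult libraries carried no treatment label, and all 4 comparisons below share them as the control. Mice were pooled, and by the study's methods each group was run a single time, so the 2 libraries of a group may come from 1 pool. The p-values then measure only the spread between libraries, which may be technical. Age and sex cannot be told apart in the juvenile group.

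Bone marrow sinusoids are wide, thin-walled capillaries with a discontinuous lining through which blood cells enter the circulation. Like the sinusoids of liver and spleen, they clear macromolecules and particles: receptors at the surface bind modified proteins, glycans or immune complexes, clathrin-coated vesicles carry them inwards, and lysosomal proteases and nucleases degrade them. Of the 7 genes, Stab1 and Stab2 encode stabilins, large multidomain scavenger receptors of which stabilin-2 binds hyaluronan. Mrc1 encodes the mannose receptor, and Fcgr2b the inhibitory low-affinity receptor for IgG complexes. Lgmn encodes legumain, an asparaginyl endopeptidase of lysosomes, and Dnase1l3 a secreted DNase that digests chromatin DNA. Clec1b encodes CLEC-2, a C-type lectin-like receptor best known on platelets, where it binds podoplanin.

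In the GRCm38 annotation, all 7 are protein-coding. Stab1 (ENSMUSG00000042286) lies on the minus strand of chromosome 14 from 31139013 to 31168641, Stab2 (ENSMUSG00000035459) on the minus strand of chromosome 10 from 86841198 to 87008025, and Mrc1 (ENSMUSG00000026712) on the plus strand of chromosome 2 from 14229392 to 14332057. Fcgr2b (ENSMUSG00000026656) spans 170958617 to 170976547 on the minus strand of chromosome 1, Lgmn (ENSMUSG00000021190) 102394084 to 102439813 on the minus strand of chromosome 12, Dnase1l3 (ENSMUSG00000025279) 7964533 to 7994573 on the minus strand of chromosome 14, and Clec1b (ENSMUSG00000030159) 129397297 to 129409335 on the plus strand of chromosome 6. Exons of Clec1b overlap exons of Clec9a on the same strand, so that reads of the overlap cannot be assigned with certainty. Exons of Stab1, Stab2 and Fcgr2b overlap exons of Nt5dc2, Gm16268 and Gm38204 on the opposite strand.

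Of 47466 barcodes, 46283 cells with 500 to 6000 genes and under 25% mitochondrial UMIs were kept, with 10653583 to 28419323 UMIs per library and a median of 3075 to 5149 UMIs per cell. Libraries shared 3 to 88 barcodes with each other, at most 1.47% of the smaller library. Clusters built without the 7 genes were named by fixed markers and are called by the name with "-like". They held 16976 sinusoidal-like cells (Flt4 545 and Cxadr 243 CPM, a gene's UMIs divided by the total of the sum and multiplied by 1000000, over all libraries), 11329 metaphyseal-like cells (Ramp3 484, Aplnr 1206), 7184 arterial-like cells (Gja4 1258) and 2772 type R-like cells (Timp4 1263, Aqp7 574), besides 682 proliferating cells. Cdh5 stood at 1048 to 1623 CPM in these 4 types and Ptprc, the pan-leukocyte marker, at 0.155 to 0.471. Sinusoidal-like cells were 60.6 and 61.5% of the ECs of the named types in the 2 juvenile libraries, 52.7 and 53.6% of adult, 21.3 and 21.6% of aged, 33.9 and 28.8% of PTH and 42.5 and 43.1% of alendronate ECs.

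Among sinusoidal-like, metaphyseal-like, arterial-like and type R-like cells, the mean level of each of the 7 genes was highest in sinusoidal-like and next in metaphyseal-like cells. Proliferating cells, which were not tested, held 559 ± 173 CPM of Stab2, 320 ± 109 of Mrc1 and 935 ± 552 of Dnase1l3 (SD, n = 9), more than the metaphyseal-like means given below. Levels were compared between types on UMIs summed per type and library, with the library as a block, and calls required both a fold above 1 on the log2 scale and an adjusted p under 0.05. By that rule 7 of 7 members were higher in sinusoidal-like than in arterial-like cells, where 9.58% of the 11582 genes tested were, and 7 of 7 were higher than in type R-like cells, where 12% of genes were. Against metaphyseal-like cells 6 of 7 were higher, where 5.68% of genes were. Stab1 was the exception: it passed the p threshold but not the fold. The members were chosen as sinusoidal genes with earlier results of these data known, so these counts are no independent support for the pattern.

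**Figure D1:**
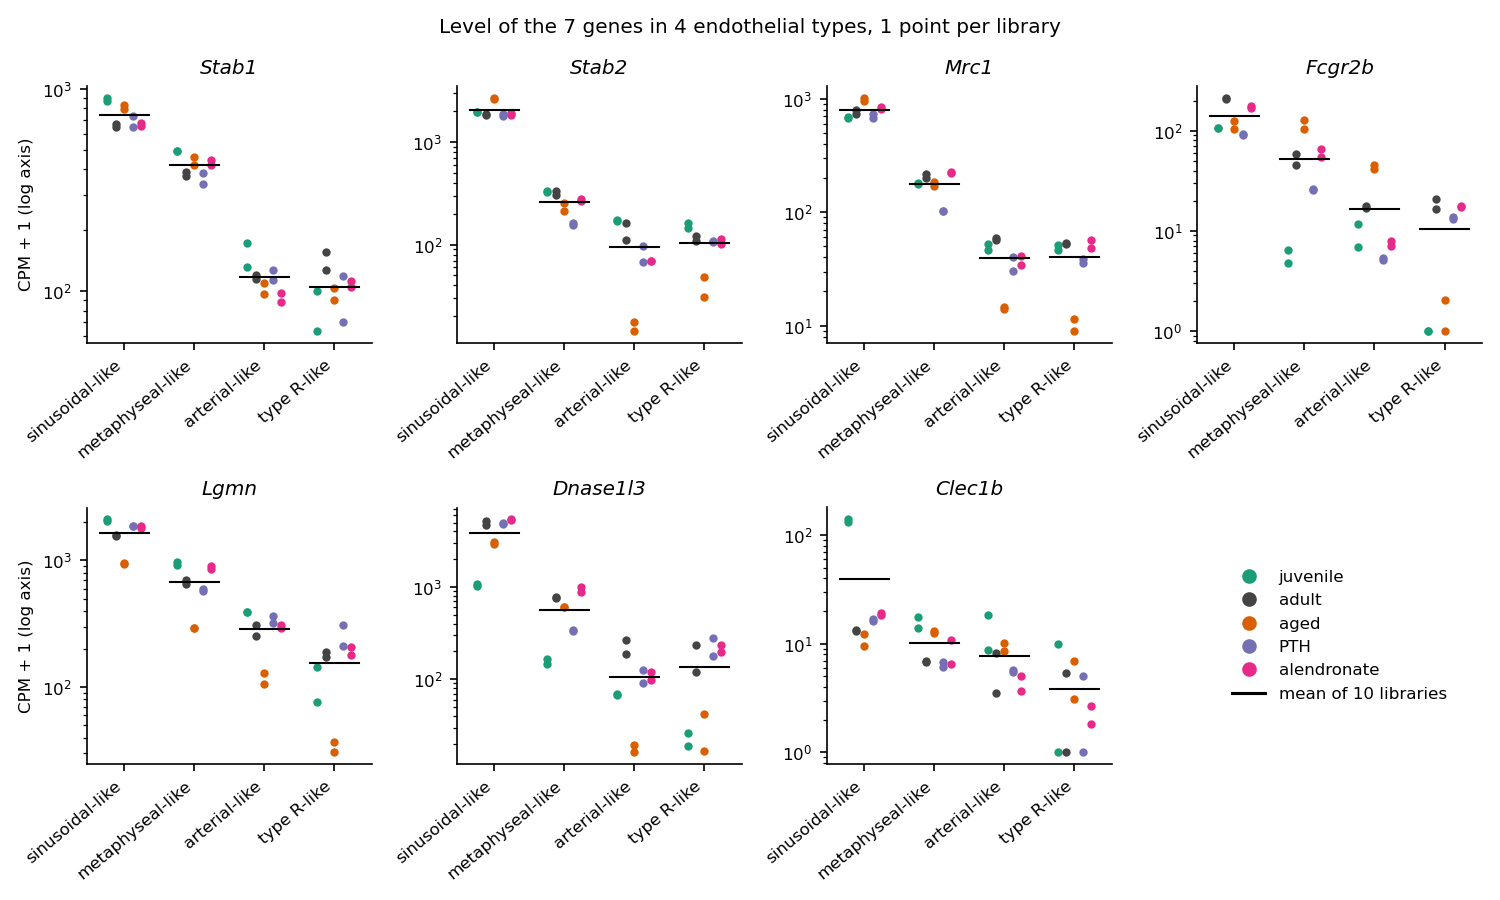
Level of each of the 7 genes (CPM + 1, log axis) in sinusoidal-like, metaphyseal-like, arterial-like and type R-like cells. Each point is one of 10 libraries, coloured by group, and the line is their mean. The sinusoidal-like points lie above all arterial-like points for every gene but Clec1b.

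The stabilins behaved differently from each other across types. Stab2 stood at 2053 ± 341 CPM in sinusoidal-like sums (SD, n = 10; lowest 1792, median 1917, highest 2726), at 262 ± 66.7 CPM in metaphyseal-like, 94.4 ± 58.9 in arterial-like and 104 ± 39.8 in type R-like sums. The lowest sinusoidal-like library was above the highest of every other type, and the log2 fold change was 3.06 (SE 0.22, adjusted p = 4.4e-17) over metaphyseal-like cells and 4.66 (SE 0.25, adjusted p = 1.6e-22) over arterial-like cells. Stab1 stood at 742 ± 98.2 CPM in sinusoidal-like (647, 704 and 903) and 420 ± 52.1 CPM in metaphyseal-like sums (337, 419 and 494). These groups of libraries did not overlap either, and Stab1 was higher in 10 of 10 libraries, but by a log2 fold change of 0.82 only (SE 0.08, adjusted p = 6.8e-13). Against arterial-like cells, at 116 ± 23.9 CPM, the Stab1 difference was 2.69 (SE 0.09, adjusted p = 1.9e-31).

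Mrc1 followed Stab2. It stood at 796 ± 119 CPM in sinusoidal-like and 177 ± 44.1 CPM in metaphyseal-like sums, a log2 fold change of 2.21 (SE 0.15, adjusted p = 7.2e-18), and at 38.1 ± 16.0 and 39.3 ± 17.1 CPM in arterial-like and type R-like sums. For Fcgr2b the levels were 138 ± 47.6 CPM in sinusoidal-like, 51.0 ± 40.1 in metaphyseal-like, 15.5 ± 14.8 in arterial-like and 9.38 ± 8.13 in type R-like sums. The Fcgr2b difference from metaphyseal-like cells was 1.73 (SE 0.23, adjusted p = 9.2e-09) and ran in 9 of 10 libraries, with overlapping ranges. The exception was an aged library, as described below.

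The levels of both degradative enzymes were highest in sinusoidal-like cells as well. Dnase1l3 had the widest range of sinusoidal-like levels of any member but Clec1b, 3857 ± 1719 CPM (lowest 1031, median 4770.0, highest 5436), against 561 ± 300.4 CPM in metaphyseal-like, 105 ± 75.8 in arterial-like and 134 ± 103 in type R-like sums. Its log2 fold change was 2.77 (SE 0.25, adjusted p = 7.7e-14) over metaphyseal-like and 5.31 (SE 0.29, adjusted p = 6.6e-22) over arterial-like cells. Lgmn was less restricted, at 1658 ± 412 CPM in sinusoidal-like, 677 ± 246 in metaphyseal-like, 286 ± 99.7 in arterial-like and 155 ± 86.8 in type R-like sums. The Lgmn change was 1.35 (SE 0.11, adjusted p = 2.9e-15) over metaphyseal-like and 2.60 (SE 0.12, adjusted p = 1.4e-25) over arterial-like cells, and 10 of 10 libraries had more Lgmn in arterial-like than in type R-like cells, by 0.88 (SE 0.14, adjusted p = 6.5e-07), which is under the fold required for a call.

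Clec1b had few UMIs outside juvenile bone. Its sinusoidal-like levels ran from 8.53 CPM through a median of 15.5 to 139 CPM, and its means in metaphyseal-like, arterial-like and type R-like sums were 9.11 ± 4.06, 6.75 ± 4.34 and 2.80 ± 3.01 CPM. The differences from sinusoidal-like cells were called, at 1.68 (SE 0.21, adjusted p = 1.9e-09), 2.02 (SE 0.25, adjusted p = 9.4e-10) and 2.96 (SE 0.52, adjusted p = 2.6e-06). Yet the ranges overlapped in each case, and the difference from metaphyseal-like cells ran in 8 of 10 libraries.

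Metaphyseal-like cells had more of 6 of the 7 genes than arterial-like cells, with log2 fold changes from 1.25 (Lgmn) to 2.54 (Dnase1l3), where 5.66% of genes were higher. They had more of the same 6 than type R-like cells, with changes from 1.46 (Stab2) to 2.36 (Fcgr2b), where 8.57% were. Against arterial-like cells Fcgr2b was higher in 8 of 10 libraries, not in the juvenile ones, and the ranges overlapped. Without integration of the libraries before clustering the differences from arterial-like cells were smaller, and those of Dnase1l3 (0.94), Fcgr2b (0.88), Lgmn (0.95) and Stab2 (0.57) were under the fold required for a call. Clec1b was called in neither comparison (0.34, adjusted p = 0.37, and 1.28, adjusted p = 0.097). Between arterial-like and type R-like cells 0 of 7 members were called by edgeR or DESeq2, and the share of all genes called there is not given. With edgeR 1 of 7, Lgmn, had an unadjusted p under 0.05. Its adjusted p was 6.5e-07, and its log2 fold change of 0.88 was under the fold required for a call.

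Low levels of a gene that another cell type makes in plenty can come from RNA set free in the suspension. The haematopoietic-like cells of the same libraries, led by neutrophil genes such as S100a8 and Elane, gave a measure of it, on plain CPM without a scaling factor. In these blood cells Stab2 stood at 198 and 93.2 CPM in juvenile, 82.5 and 84.6 in adult, 11.5 and 7.95 in aged, 36.3 and 51.3 in PTH and 46.6 and 56.4 in alendronate libraries. Arterial-like cells held 168 and 175, 107 and 159, 17.6 and 13.9, 96.9 and 65.9, and 65.5 and 65.7 CPM in the same order. Stab2 in arterial-like cells was lowest in the 2 libraries where that of the blood cells was lowest, and was above it in 9 of 10 libraries. For Dnase1l3 the blood cells held 11.6 to 171 CPM and arterial-like cells 15.7 to 261 CPM, and for Mrc1 8.67 to 62.9 and 13.7 to 57.8 CPM, with the arterial-like cells higher in 8 of 10 libraries for either gene. At an equal depth of 1000 UMIs the shares of cells with a UMI were close: 6.80% of arterial-like against 7.71% of haematopoietic-like cells for Stab2, 5.81 against 7.52% for Dnase1l3 and 3.47 against 2.99% for Mrc1. Without thinning they were 17.2 against 29.1%, 14.3 against 26.4% and 9.99 against 17.9%. The haematopoietic-like cells were deeper, with a median of 8482 against 3298 UMIs, so this measure depended on depth. Whether the difference in depth also affected the comparisons of CPM with these blood cells was not tested. For Stab1 and Lgmn, arterial-like cells held 83.4 to 173 CPM of Stab1 and 110 to 395 CPM of Lgmn, and were above the blood cells of the same library in 10 of 10 libraries for both, with 10.0 against 3.70% and 22.1 against 11.3% of thinned cells. The other cells of the suspension were uneven. Of 2 erythroid-like clusters, the larger one (431 cells) held 54.5 CPM of Stab2, 47.2 of Dnase1l3, 23.0 of Mrc1, 19.7 of Stab1 and 55.3 of Lgmn, and the smaller one (259 cells) 919.9, 1784, 358, 425 and 871 CPM. Over both clusters 24.9% of thinned erythroid-like cells had a Stab2 UMI, and 26.9% of mesenchymal- or mural-like cells. Cells of these 2 classes also held the endothelial Cdh5, at 176 and 469 CPM against 71.2 CPM in haematopoietic-like cells. No expression of Stab2, Dnase1l3 or Mrc1 by arterial-like or type R-like cells is therefore read from their levels there, and none of Stab1 or Lgmn is asserted. In metaphyseal-like cells the thinned shares were 20.97% for Stab2, 24.5% for Dnase1l3, 16.3% for Mrc1, 35.8% for Stab1 and 43.8% for Lgmn, above those of haematopoietic-like cells for each gene, while that of Stab2 was below the shares in erythroid-like and mesenchymal- or mural-like cells, and that of Dnase1l3 was close to the 23.8% of erythroid-like and below the 28.7% of mesenchymal- or mural-like cells. The part of RNA from other cells in the metaphyseal-like levels was not tested. Fcgr2b and Clec1b gave no such measure, because the haematopoietic-like cells, at 42.5 and 39.9 CPM over all libraries, may carry transcripts of their own. Whether some of these blood cells also carry their own transcripts of the other members was not tested.

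**Figure D2:**
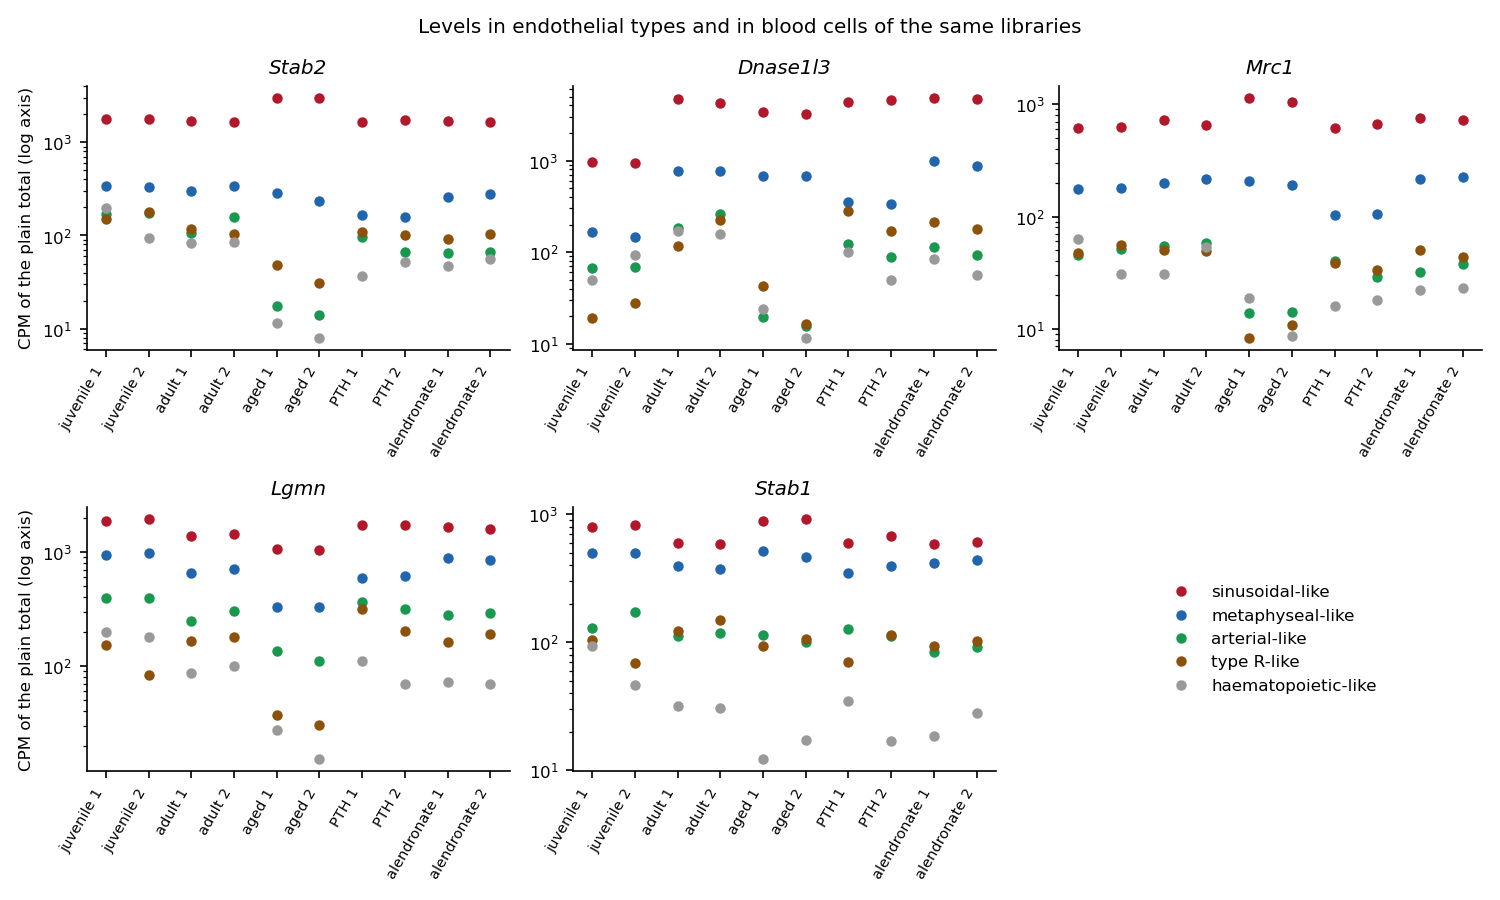
Levels of 5 members (plain CPM, log axis) in the 4 endothelial types and in haematopoietic-like cells, with the 10 libraries along the horizontal axis. Stab1 and Lgmn of arterial-like cells lie above the blood cells in each library, and Stab2, Mrc1 and Dnase1l3 lie closer to them.

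Detection was also counted per cell. After each cell was thinned to 1000 UMIs, 80.9% ± 4.66 (SD, n = 10 libraries) of sinusoidal-like cells had a UMI of Stab2 (97.3% before thinning), 80.4% ± 19.6 of Dnase1l3, 72.7% ± 8.02 of Lgmn, 51.1% ± 5.64 of Mrc1, 49.6% ± 6.78 of Stab1, 10.6% ± 3.20 of Fcgr2b and 3.10% ± 3.71 of Clec1b. The share with Stab2 was 20.97% in metaphyseal-like and 5.81% in type R-like cells (45.7 and 13.7% before thinning). Median depths before thinning were 3706.5 UMIs in sinusoidal-like, 3349 in metaphyseal-like, 3298 in arterial-like, 1983.5 in type R-like and 8482 in haematopoietic-like cells. Of 16422 sinusoidal-like cells deep enough for thinning, 0.371% had no member and 49.4% had 4 or more, with a mean of 3.46 members per cell. The mean was 1.46 in metaphyseal-like, 0.482 in arterial-like and 0.377 in type R-like cells.

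Within the sinusoidal-like class the genes varied less than between classes. Over the 4 sinusoidal-like clusters, on plain CPM, Stab2 ran from 1591 to 2556, Mrc1 from 632 to 1017, Stab1 from 620 to 1138, Lgmn from 1513 to 2066, Dnase1l3 from 3236 to 3933, Fcgr2b from 128 to 181 and Clec1b from 26.8 to 48.0 CPM. Stab1 and Stab2 were highest, in 10 of 10 libraries, in the smallest cluster, of 2584 cells, whose median UMI count was 0.401 times that of its libraries and whose leading genes included mitochondrial transcripts and Xist. That shallow cluster made up 6.34 and 10.6% of the sinusoidal-like cells of the juvenile libraries, 17.4 and 12.8% of adult, 28.4 and 35.0% of aged, 7.18 and 15.5% of PTH and 17.0 and 22.7% of alendronate libraries. In the aged libraries it held the least Dnase1l3, 1875 and 1914 CPM against 3111 to 3675 in the other clusters, and the least Lgmn, 809 and 792 against 956 to 1286 CPM. A further 2811 cells led by Cxcl10 and Cxcl9 scored too low on the sinusoidal markers to be named and were left out of the class, although they held 1159 CPM of Stab2, 2557 CPM of Dnase1l3 and 1427 CPM of Lgmn.

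The marker genes of blood cells that share these receptors were looked up in the sinusoidal-like sums. The 14 macrophage genes reported stood at 0.0151 to 16.8 CPM, with Csf1r at 0.515, C1qa at 1.42, Cd68 at 1.82 and Cx3cr1 and Timd4 at 0.0151 and 0.0303. Of 12 platelet and megakaryocyte genes, Pf4 stood at 111 CPM, Itga2b at 13.4, Ppbp at 6.49 and Gp9 at 0.711 CPM.

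From 3 to 12 weeks the members moved in both directions in sinusoidal-like cells. Group differences were tested within a type with all 10 libraries in the fit, and called at an adjusted p under 0.05. All 7 of 7 members were called between juvenile and adult, where 36.2% of 13485 genes were, and 4 were higher and 3 lower in juvenile cells.

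Dnase1l3 and Clec1b changed most, and in opposite directions. Dnase1l3 stood at 1029 and 1001 CPM in juvenile and 4953 and 4490.1 CPM in adult cells, and its log2 fold change in juvenile cells was -2.22 (SE 0.04, adjusted p = 8.8e-33), that is 0.215-fold. Clec1b stood at 127 and 135 CPM in juvenile and 11.8 and 11.4 CPM in adult cells, from 1085 and 1131 against 97 and 89 UMIs. The groups of both genes were far apart, and Clec1b rose by 3.49 (SE 0.09, adjusted p = 2.8e-27), 11.3-fold, in juvenile cells. In cells thinned to 1000 UMIs, 10.0 and 10.2% of juvenile sinusoidal-like cells had a Clec1b UMI, and 0.618 to 1.97% in the other 8 libraries. The juvenile rise of Clec1b was present in each of the 4 sinusoidal-like clusters, from 86.9 to 171 CPM against 7.85 to 22.5 CPM in adult cells.

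Some platelet genes and the gene overlapping Clec1b moved beside it, to a smaller extent. Pf4 stood at 183 and 207 CPM in juvenile against 67.3 and 70.6 CPM in adult sinusoidal-like sums, and Itga2b at 20.9 and 22.2 against 9.48 and 13.7 CPM. Of 6 platelet genes tested 3 were higher and 1 lower, Ppbp, at 6.19 and 3.10 against 5.47 and 11.5 CPM. Clec9a, whose exons overlap those of Clec1b, stood at 16.6 and 16.6 against 8.87 and 7.17 CPM. In the alendronate libraries Pf4 stood at 157 and 136 CPM and Clec1b at 17.4 and 16.6 CPM, each between the adult and the juvenile libraries. The part of platelet RNA in the Clec1b level was not tested.

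The other members moved less with maturation. Fcgr2b stood at 102 and 102 CPM in juvenile against 194 and 201 CPM in adult libraries, a log2 fold change of -0.96 (SE 0.06, adjusted p = 7.1e-17). Stab1 was at 839.9 and 877 against 636 and 613 CPM (0.46, SE 0.04, adjusted p = 3.5e-11), and Lgmn at 1987 and 2054 against 1469.5 and 1499 CPM (0.44, SE 0.04, adjusted p = 4.8e-13). Each of these groups of 2 lay apart from the other. The smallest differences were a rise of Stab2 of 0.12 (SE 0.04, adjusted p = 0.0087), which was not called without integration of the libraries (0.05, adjusted p = 0.25), and a fall of Mrc1 of -0.13 (SE 0.04, adjusted p = 0.018), which was not called with DESeq2 (adjusted p = 0.13) or with types set by a marker gate (adjusted p = 0.50). Both calls also rested on single libraries: that of Stab2 was lost without the second juvenile (0.12) or the second adult library (0.11), and that of Mrc1 without the first juvenile (-0.11) or the first adult library (-0.06).

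**Figure D3:**
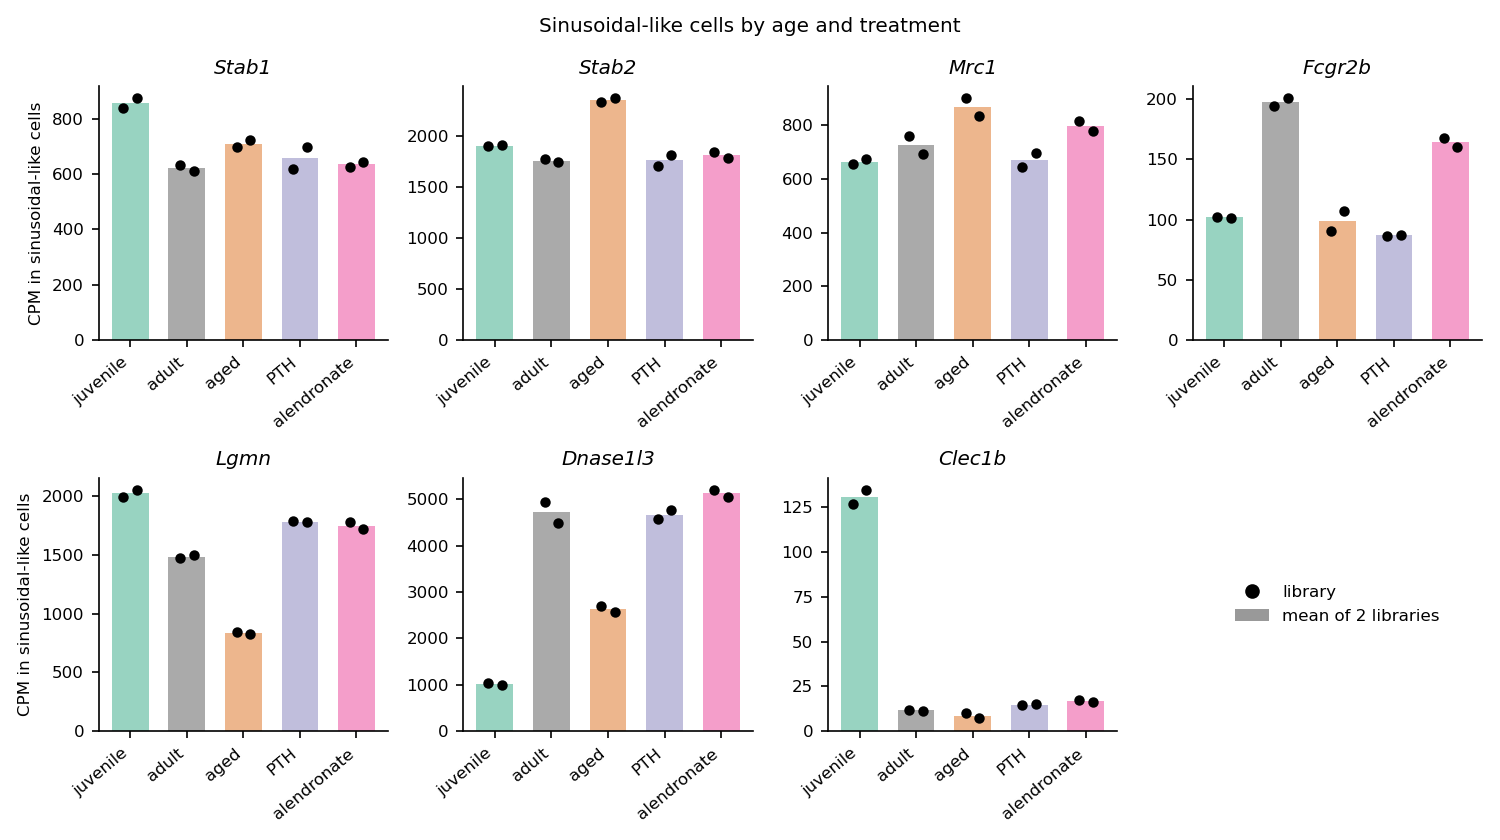
Level of each member (CPM) in sinusoidal-like cells by group, with one point per library and a bar for the mean of 2 libraries. Dnase1l3 is lowest in the 2 juvenile libraries, Clec1b is highest there, and Lgmn is lowest in the 2 aged libraries.

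At 75 weeks 3 receptors rose, and both enzymes and a further receptor fell. In aged sinusoidal-like cells 6 of 7 members were called, where 64.8% of all genes were, so that a call by itself said little about the members and the sizes are given. Stab2 stood at 2343 and 2377 CPM against 1773 and 1747 CPM in adult libraries, a rise of 0.42 (SE 0.04, adjusted p = 6.2e-13), Mrc1 at 902 and 834 against 759 and 694 CPM, a rise of 0.26 (SE 0.05, adjusted p = 7.2e-06), and Stab1 at 699 and 723 against 636 and 613 CPM, a rise of 0.19 (SE 0.05, adjusted p = 4.8e-04). The 2 groups did not overlap for any of the 3 receptors, but with types set by the marker gate the rises of Mrc1 (0.05, adjusted p = 0.44) and Stab1 (0.12, adjusted p = 0.073) were not called, and that of Stab2 was 0.16 (adjusted p = 0.0026).

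Lgmn, Dnase1l3 and Fcgr2b fell at 75 weeks. Lgmn stood at 845 and 822 against 1469.5 and 1499 CPM (-0.83, SE 0.04, adjusted p = 5.2e-21), Dnase1l3 at 2699 and 2569 against 4953 and 4490.1 CPM (-0.84, SE 0.04, adjusted p = 1.1e-20) and Fcgr2b at 90.5 and 107 against 194 and 201 CPM (-0.999, SE 0.07, adjusted p = 4.0e-16). The fall of Fcgr2b was -0.65 at resolution 0.3 and -0.63 without integration, both called. In folds the values as reported are 0.562, 0.558 and 0.5004 of the adult level, and no aged library reached an adult one. By cluster, on plain CPM, aged Fcgr2b was not lower in all 4: it stood at 101 and 113 against 188 and 205 CPM in the largest cluster, at 101 and 120 against 179 and 158 and at 108 and 172 against 229 and 241 CPM in a further pair, but at 182 and 220 against 161 and 177 CPM in the other one, with 51 and 41 aged cells. Clec1b stood at 9.91 and 7.43 against 11.8 and 11.4 CPM, from 37 and 27 UMIs in the aged libraries, and was not called (-0.42, SE 0.19, adjusted p = 0.063). These levels carry the TMM scaling factor, which lowered the aged ones. On plain CPM Stab2 stood at 2952 and 2986 against 1675 and 1655 CPM and Lgmn at 1065 and 1033 against 1388 and 1420.3 CPM. The directions of both genes were the same, but the rise of Stab2 was larger and the fall of Lgmn smaller than with the factor. The shallow cluster was a larger part of the aged cells. With it and the shallow metaphyseal-like cluster left out, the changes were -0.72 for Lgmn, -0.74 for Dnase1l3, -0.98 for Fcgr2b and 0.42 for Stab2, all called. The tables of the aged libraries were also the only ones with gene names starting with U, which were left out. The kit version of each library is not given in the sources used here, and any difference in processing of the aged libraries cannot be told apart from age.

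PTH left 5 of the 7 members uncalled in sinusoidal-like cells, where 8.37% of genes were called. Fcgr2b stood at 86.0 and 87.5 CPM against 194 and 201 CPM in adult libraries and fell by 1.18 on the log2 scale (SE 0.07, adjusted p = 3.8e-16), to 0.441 of the adult level. Lgmn stood at 1787 and 1774 against 1469.5 and 1499 CPM and rose by 0.26 (SE 0.04, adjusted p = 1.3e-06). Stab2 stood at 1709 and 1818 against 1773 and 1747 CPM, and Dnase1l3 at 4568 and 4763 against 4953 and 4490.1 CPM, overlapping ranges with log2 differences of 0.01 (SE 0.04) and -0.02 (SE 0.04). Stab1, Mrc1 and Clec1b differed by 0.09, -0.10 and 0.37, with adjusted p of 0.26, 0.19 and 0.17.

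Alendronate gave 5 calls of 7 in sinusoidal-like cells, where 17.1% of genes were called, all of them small. Clec1b stood at 17.4 and 16.6 CPM against 11.8 and 11.4 CPM (0.55, SE 0.14, adjusted p = 0.0035), and Fcgr2b at 168 and 161 against 194 and 201 CPM (-0.27, SE 0.05, adjusted p = 3.2e-04). Lgmn rose by 0.23 (SE 0.04, adjusted p = 4.6e-06), Mrc1 by 0.13 (SE 0.04, adjusted p = 0.033) and Dnase1l3 by 0.12 (SE 0.04, adjusted p = 0.024), with alendronate libraries at 1776 and 1717, 816 and 777, and 5212 and 5053 CPM. The groups of these 5 genes did not overlap, but the rises of Mrc1 and Dnase1l3 were not called with DESeq2 (adjusted p = 0.12 and 0.086), and with the marker gate 1 of the 5 calls was left, that of Fcgr2b. Without the second adult or the first alendronate library 3 of 7 members were called.

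Fcgr2b was therefore lower than in the adult libraries in all 4 other groups. Its sinusoidal-like level was 86.0 to 107 CPM in the juvenile, aged and PTH libraries, 161 and 168 CPM with alendronate and 194 and 201 CPM in the adult libraries. The adult libraries enter each of these 4 comparisons. Genes of B cells, which carry this receptor, moved beside it: of 5 tested, 4 were lower in juvenile, 5 in aged, 3 in PTH and 2 in alendronate sinusoidal-like cells and 0 higher, with medians of -1.10, -3.52, -1.86 and -0.49. Their level was low. The 10 B-cell genes summed to 48.8 and 56.8 plain CPM in adult, 20.8 and 26.8 in juvenile, 26.3 and 26.3 in aged, 43.9 and 34.6 in PTH and 30.8 and 41.6 in alendronate libraries, and over all libraries Ebf1 made up 25.2 of 36.3 CPM, with Cd79a at 0.636 and Ms4a1 at 0.121 CPM. The part of B-cell RNA in the Fcgr2b differences was not tested.

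In metaphyseal-like cells PTH had a different pattern. Metaphyseal capillaries, of the type H region near the growth plate, accompany osteoprogenitors and the forming trabeculae. There 5 of 7 members were called with PTH, all lower, where 15% of 12187 genes were called in either direction. Dnase1l3 stood at 357 and 343 CPM against 787 and 798 CPM in adult libraries (-1.18, SE 0.06, adjusted p = 9.9e-18), Stab2 at 168 and 159 against 312 and 346 CPM (-1.02, SE 0.07, adjusted p = 7.7e-14), and Mrc1 at 105 and 106 against 206 and 223 CPM (-1.02, SE 0.07, adjusted p = 2.5e-14). The PTH libraries lay at 0.440 to 0.494 of the adult level in each case, well clear of it. Without integration the falls of Dnase1l3 and Stab2 were -0.75 and -0.65, still called. Fcgr2b stood at 25.4 and 26.1 against 46.4 and 59.1 CPM (-1.02, SE 0.13, adjusted p = 1.6e-07) and Lgmn at 594 and 619 against 677 and 727 CPM (-0.21, SE 0.05, adjusted p = 0.0053), a call that was lost without the second adult (-0.15) or the first PTH library (-0.18), without integration (-0.07) and with the marker gate (-0.29). Stab1, at 349 and 396 against 401 and 383 CPM, overlapped with the adult libraries (-0.06, SE 0.06, adjusted p = 0.60). Dnase1l3, Stab2 and Mrc1 were also lower with PTH in arterial-like cells (-1.14, -0.81 and -0.82), where no expression of them was read. Stab2 of the haematopoietic-like cells was likewise lower in both PTH than in both adult libraries. The part of free RNA in the metaphyseal-like falls was not tested.

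**Figure D4:**
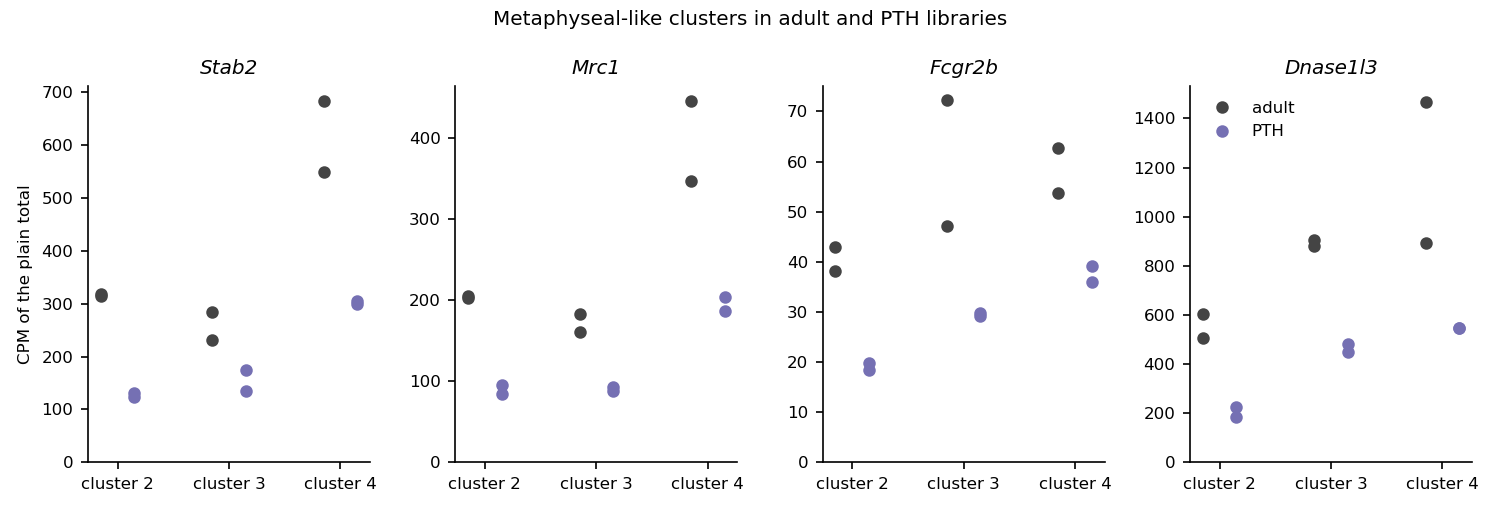
Levels (plain CPM) of Stab2, Mrc1, Fcgr2b and Dnase1l3 in the 3 metaphyseal-like clusters of the adult and PTH libraries, one point per library and cluster. All 4 genes are lower in both PTH libraries than in both adult libraries in each cluster.

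The difference between the types was tested itself, as an interaction of type and group with the library as a block. The PTH change of metaphyseal-like minus that of sinusoidal-like cells was called for 4 of 7 members, where 4.04% of 11524 genes were: -1.17 for Dnase1l3 (SE 0.09, adjusted p = 1.1e-17), -1.02 for Stab2 (SE 0.09, adjusted p = 1.9e-15), -0.93 for Mrc1 (SE 0.08, adjusted p = 7.4e-15) and -0.47 for Lgmn (SE 0.07, adjusted p = 9.6e-07). With types set by the marker gate the differences were as large but the calls of Dnase1l3 (-1.13), Stab2 (-1.15) and Lgmn (-0.51) were lost (adjusted p = 0.11, 0.11 and 0.19), and that of Mrc1 was not (adjusted p = 0.028). For Fcgr2b, which fell in both types, it was 0.16 (SE 0.14, adjusted p = 0.76), and for Stab1 and Clec1b -0.16 and -0.43 (adjusted p = 0.37 and 0.68). In the 3 metaphyseal-like clusters taken one by one, on plain CPM, Stab2 was 124 and 131, 174 and 134, and 299 and 305 CPM with PTH against 314 and 318, 231 and 285, and 548 and 683 CPM in adult libraries. The markers of the types moved too: the summed sinusoidal markers in metaphyseal-like cells were 455 and 460 CPM with PTH against 840 and 902 CPM in adult libraries, and the summed metaphyseal markers 2914 and 2869 against 1858 and 1763 CPM. Sinusoidal-like cells were also a smaller share of the PTH ECs. The part of the make-up of the class in the fall was not tested.

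In juvenile metaphyseal-like cells 6 of 7 members were called, where 27% of genes were, and all 6 had the sign seen in sinusoidal-like cells. The smallest, that of Mrc1 (-0.19, adjusted p = 0.026), was not called at resolution 0.8, with the marker gate, without the shallow clusters, with DESeq2, or without either juvenile or the second adult library (adjusted p from 0.082 to 0.98). Dnase1l3 stood at 173 and 155 against 787 and 798 CPM (-2.27, SE 0.06, adjusted p = 9.7e-26), and Lgmn at 978 and 1025 against 677 and 727 CPM (0.51, SE 0.05, adjusted p = 7.0e-10). For these 2 enzymes, Stab1, Stab2 and Mrc1 the difference of the changes was not called and ran from -0.05 to 0.08 (adjusted p from 0.59 to 0.94). Fcgr2b did differ: it had 16 and 22 UMIs, 3.99 and 5.68 CPM, in juvenile metaphyseal-like cells against 206 and 238 UMIs, 46.4 and 59.1 CPM, in adult cells. Its fall of -3.44 (SE 0.21, adjusted p = 7.9e-16) exceeded that in sinusoidal-like cells by -2.47 (SE 0.22, adjusted p = 4.6e-15). For Clec1b the juvenile rise was the smaller one, at 17.7 and 13.7 against 6.09 and 5.96 CPM (1.38, SE 0.25, adjusted p = 3.2e-05), with an interaction of -2.10 (SE 0.31, adjusted p = 1.8e-07). These were 2 of 7 members, and 9.09% of all genes had a called interaction in this comparison. With the marker gate both interactions lost their call, at -1.24 for Fcgr2b (adjusted p = 0.059) and -1.47 for Clec1b (adjusted p = 0.16).

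Fcgr2b in aged bone fell in sinusoidal-like and rose in metaphyseal-like cells. In the latter it went to 127 and 101 CPM from 46.4 and 59.1 CPM (1.12, SE 0.11, adjusted p = 2.1e-11). The interaction was 2.06 (SE 0.12, adjusted p = 6.8e-24), and 6 of 7 members were called in this comparison, where 15% of genes were. In arterial-like cells Fcgr2b rose from 15.7 and 16.8 CPM to 43.6 and 40.01 CPM (1.36, SE 0.18, adjusted p = 9.3e-08), from 37 and 37 to 155 and 140 UMIs. There the rise lay in the larger arterial-like cluster, at 58.0 and 53.3 against 17.0 and 17.0 plain CPM, and not in the smaller one, at 7.68 and 10.5 against 9.53 and 14.7 plain CPM. The metaphyseal-like rise depended on how the class was set: with types taken from a gate on Ramp3 or Aplnr UMIs it was -0.33 (adjusted p = 0.35), with an interaction of 0.28 (adjusted p = 0.76), while the arterial-like rise was 0.99 (adjusted p = 0.019) with a gate on Gja4. In the 3 metaphyseal-like clusters Fcgr2b was 134 and 88.5, 164 and 136, and 105 and 111 plain CPM in aged against 38.1 and 43.0, 47.2 and 72.4, and 62.7 and 53.8 plain CPM in adult libraries.

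The remaining members in aged metaphyseal-like cells were all called, where 65.7% of genes were. Lgmn fell to 288 and 291 CPM (-1.28, SE 0.06, adjusted p = 1.8e-20), further than in sinusoidal-like cells (interaction -0.50, SE 0.08, adjusted p = 5.3e-07). Stab2 fell to 253 and 211 CPM (-0.50, SE 0.07, adjusted p = 9.2e-08) and Mrc1 to 182 and 169 CPM (-0.29, SE 0.07, adjusted p = 2.4e-04), and both had risen in sinusoidal-like cells, with interactions of -0.98 (SE 0.09) and -0.60 (SE 0.08). Without integration these falls were 0.17 for Stab2 (adjusted p = 0.21) and 0.51 for Mrc1 (adjusted p = 5.0e-05), so their direction rested on the clustering, and at resolution 0.3 the Stab2 value was -0.10 (adjusted p = 0.17). Without integration the Lgmn interaction (-0.24, adjusted p = 0.18) and the fall of Dnase1l3 given next (-0.15, adjusted p = 0.13) were not called either. The rise of Stab1 (0.15, adjusted p = 0.031) was not called with DESeq2 (adjusted p = 0.054) or without either adult library or the first aged library (0.07 to 0.16). Dnase1l3 stood at 604 and 599.6 CPM (-0.40, SE 0.06, adjusted p = 1.6e-07). The size of its fall depended on the class, at -0.74 with resolution 0.3, -1.36 with the marker gate and -0.22 without the shallow clusters. By cluster, on plain CPM without the TMM factor, Dnase1l3 did not fall in the largest metaphyseal-like cluster. It stood there at 819 and 861 in aged against 603 and 508 CPM in adult libraries. Mrc1 was also higher there, at 277 and 249 against 203 and 205 CPM. Stab2 overlapped, at 367 and 313 against 314 and 318 CPM. In the other metaphyseal-like clusters all of these genes were lower in both aged than in both adult libraries. The Dnase1l3 difference from sinusoidal-like cells was 0.39 as reported. It was -0.048 with resolution 0.3 (adjusted p = 0.83) and -0.28 with the gate (adjusted p = 0.80). Clec1b stood at 12.0 and 11.5 CPM (0.96, SE 0.26, adjusted p = 0.0016), a rise that was lost without the shallow clusters (0.66, adjusted p = 0.061), without integration (adjusted p = 0.082) and with the gate (0.23, adjusted p = 0.76).

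With alendronate, 4 of 7 members were called in metaphyseal-like cells, where 11.7% of genes were. Lgmn rose to 937 and 889.6 CPM (0.38, SE 0.05, adjusted p = 2.3e-06) and Dnase1l3 to 1029.5 and 917 CPM (0.30, SE 0.06, adjusted p = 2.3e-04). Stab1 rose by 0.18 (SE 0.06, adjusted p = 0.045) and Stab2 fell by 0.23 (SE 0.07, adjusted p = 0.023), and neither call held with DESeq2 (adjusted p = 0.13 and 0.14). The Stab1 call was lost without any 1 of the 4 libraries compared (0.14 to 0.22), and that of Stab2 without the second adult (-0.16) or the first alendronate library (-0.20). With the marker gate Lgmn stood at 0.063 (adjusted p = 0.83) and Dnase1l3 at -0.062 (adjusted p = 0.84). The interaction with sinusoidal-like cells was called for 1 of 7, Fcgr2b (0.49, SE 0.13, adjusted p = 0.030), where 0.72% of genes were. That call was lost at both other clustering resolutions, without integration, with the marker gate, with stricter cell filters and without the shallow clusters.

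**Figure D5:**
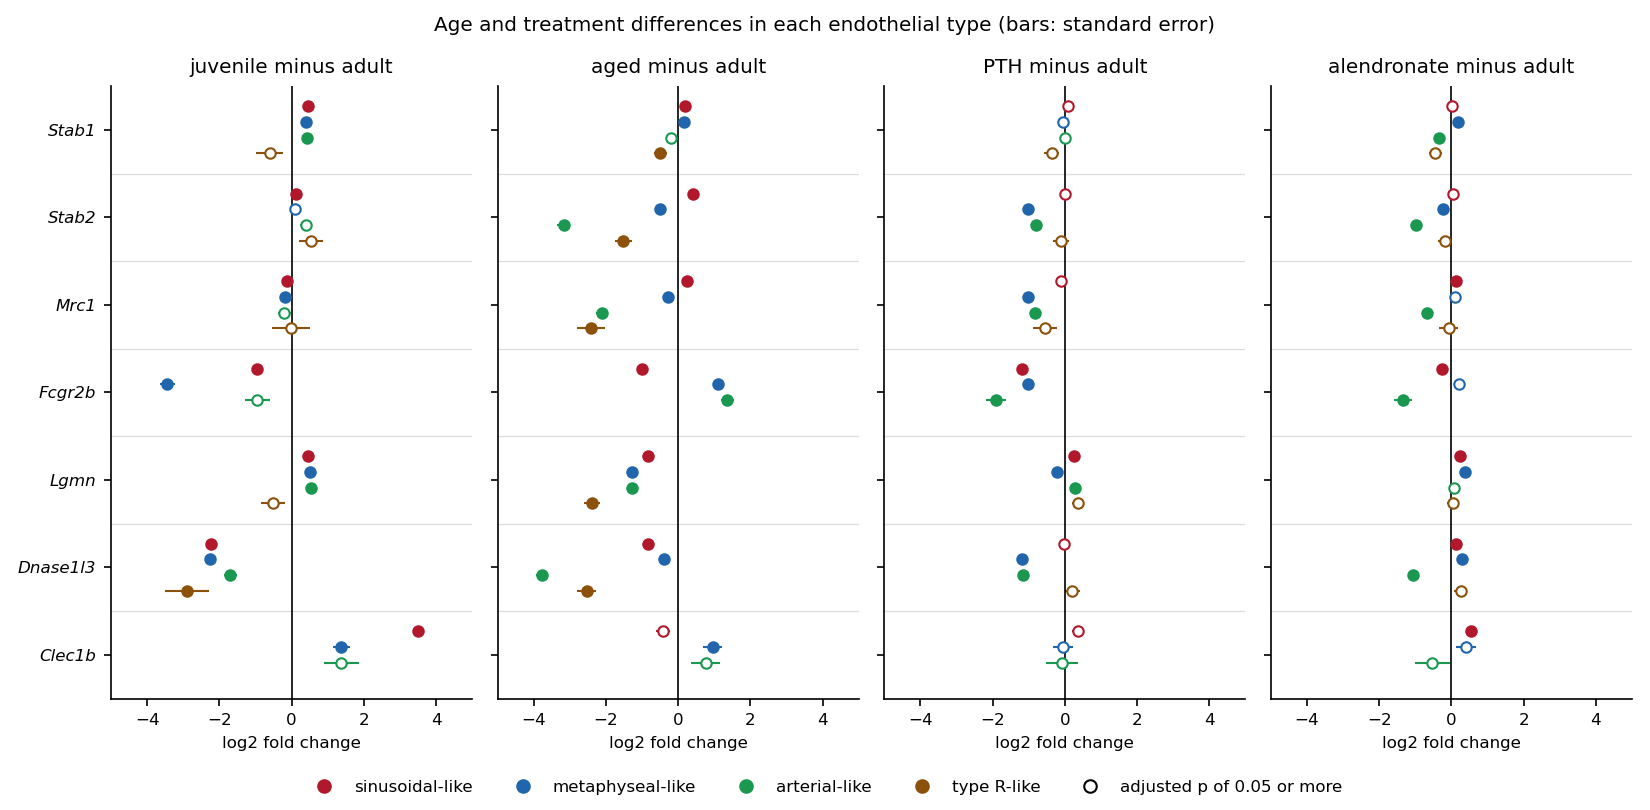
Log2 fold change of each member against adult, with its standard error, in sinusoidal-like, metaphyseal-like, arterial-like and type R-like cells, for the 4 groups. Open points have an adjusted p of 0.05 or more. In aged bone Fcgr2b is below 0 in sinusoidal-like and above 0 in metaphyseal-like and arterial-like cells. With PTH Stab2, Mrc1 and Dnase1l3 lie near 0 in sinusoidal-like cells, near -1 in metaphyseal-like and from -1.14 to -0.81 in arterial-like cells.

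In arterial-like cells the calls were 3 of 7 in juvenile, 5 of 7 in aged, 5 of 7 in PTH and 5 of 7 in alendronate libraries, where 15, 59.1, 7.56 and 8.41% of 11432 genes were called. Each alendronate call, and each juvenile and PTH call but that of Dnase1l3, was lost under at least 1 alternative. Stab2 fell by 3.17 and Dnase1l3 by 3.76 on the log2 scale in aged arterial-like cells (SE 0.18 and 0.17), from 135 to 14.9 CPM and from 226 to 16.6 CPM on average. No expression was read above from these levels, the blood cells of the aged libraries were also low in them, and the signs turned without integration (1.01 and 0.55). The interactions of arterial-like with sinusoidal-like cells were called for 6 of 7 members in aged, 3 in PTH, 4 in alendronate and 1 in juvenile libraries, where 20.9, 2.34, 2.48 and 6.07% of genes were. With the marker gate the PTH, alendronate and juvenile calls were all lost (adjusted p from 0.071 to 0.83), and without integration 5 of the 6 aged differences turned in direction. Lgmn was 402 and 403 CPM in juvenile, 253 and 306 in adult and 126 and 104 in aged arterial-like cells (0.53, SE 0.09, adjusted p = 1.1e-04, and -1.28, SE 0.09, adjusted p = 2.4e-13). With the marker gate the juvenile value was -0.014 (adjusted p = 0.99), and without integration the aged one was -0.22 (adjusted p = 0.021).

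Type R-like cells gave the least information, with 44 and 30 cells in the juvenile and 35 cells in the first PTH library. Of the 5 members that passed the filter on low counts there, 1 was called in juvenile and 5 in aged libraries, and 0 with PTH or alendronate, where 2.76, 46.7, 3 and 2.32% of 8400 genes were. The 0 calls are by edgeR, DESeq2 gave 0 as well, and at an unadjusted p under 0.05 there was 1 of 5 with PTH (Lgmn, 0.37) and 1 with alendronate (Stab1, -0.44). The aged falls were -2.53 for Dnase1l3, -2.42 for Mrc1, -2.40 for Lgmn, -1.52 for Stab2 and -0.49 for Stab1. Of the interactions 6 of 7 were called, where 9.7% of genes were. No expression of Dnase1l3, Mrc1 or Stab2 was read above from type R-like levels, and none of Lgmn or Stab1 was asserted. Aged Mrc1 had 8 and 10 UMIs there, and the blood cells of the aged libraries were also low in Stab2. The juvenile call was that of Dnase1l3, with 2 and 2 UMIs. It was lost under at least 1 alternative, as was the aged call of Stab1. Fcgr2b had 0 and 1 UMIs in the aged type R-like sums against 9 and 6 in the adult ones. The fitted interaction for it (-4.12) rests on these counts and is no bound. The interactions of type R-like cells with the other groups were called for 0 of 7 members, where 1.79% of genes were in juvenile, 1.35% in PTH and 0.989% in alendronate libraries. By edgeR at an unadjusted p under 0.05 there were 2, 1 and 1 of 7, and DESeq2 was not run on the interactions.

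The other genes of the pathway were taken from lists of clearance receptors, Fc receptors and their partners, lysosomal genes, nucleases, endocytic machinery and partners of CLEC-2. None of these lists holds a member. Genes of the Fc receptor list are called Fc receptor genes below and include the signalling partners Inpp5d and Lyn. Between sinusoidal-like and metaphyseal-like cells, where 12% of all genes were called in either direction, 3 of 16 tested clearance receptors, 5 of 36 lysosomal genes, 1 of 9 nucleases, 3 of 28 genes of the endocytic machinery, 1 of 5 CLEC-2 partners and 0 of 4 Fc receptor genes were higher, and 1 nuclease and 1 endocytic gene were lower. The medians of the lists were 0.22, 0.11, -0.12, 0.21, 0.13 and -0.42, beside 0.01 over all genes.

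Lysosomal proteases were among the genes that differed. Ctsl, encoding cathepsin L, stood at 7163 ± 1329 CPM in sinusoidal-like and 1237 ± 249 CPM in metaphyseal-like sums (2.54, SE 0.10, adjusted p = 1.6e-26), and Ctsh and Ctsc, encoding cathepsins H and C, differed by 2.22 and 1.16. Among receptors Gpr182, an atypical chemokine receptor, stood at 570 ± 87.7 against 227 ± 59.5 CPM (1.37, SE 0.11, adjusted p = 1.5e-15). Of the endocytic genes Ehd3 was higher (2.11) and its relative Ehd4 lower (-1.97) in sinusoidal-like cells, at 180.5 ± 51.0 against 41.8 ± 14.2 CPM and 34.0 ± 7.87 against 132 ± 26.2 CPM. Among nucleases Rnase4, a secreted ribonuclease, was higher (1.25) and Endod1 lower (-3.41).

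Lysosomal genes followed Lgmn downwards in aged sinusoidal-like cells. Of 38 tested, 26 were lower and 3 higher, with a median of -0.46 beside 0.01 over all genes, and with 64.8% of all genes called. Cd63, a tetraspanin of late endosomes, stood at 272 and 259 against 713 and 704 CPM (-1.42, SE 0.04, adjusted p = 5.3e-26), and Npc2, which binds cholesterol in lysosomes, at 147 and 155 against 366 and 376 CPM (-1.30, SE 0.05, adjusted p = 1.1e-22). Of 5 genes of the Fc receptor list 3 were lower and 2 higher. The 2 that rose were the signalling partners Inpp5d (0.63) and Lyn (0.23). Fcer1g, the signalling chain of activating Fc receptors, fell by 2.08 and Fcgrt, the neonatal Fc receptor, by 1.27 on the log2 scale. Blood-cell genes moved beside them: 4 of 7 macrophage genes were lower and 2 higher (median -0.98), 4 of 6 platelet genes lower and 1 higher (-1.65) and 5 of 5 B-cell genes lower (-3.52), and their part in these falls was not tested. Nucleases were lower for 7 and higher for 1 of 10, led by Rnaset2b and Rnaset2a (-1.88 and -1.85). Clearance receptors were higher for 10 and lower for 7 of 20, with Colec12 and Lrp5 at 1.00 and 0.81. The endocytic machinery was higher for 9 and lower for 13 of 28, led by Ap2s1 (-2.06), the small subunit of the clathrin adaptor AP-2, and Rab11a (-1.29), a GTPase of recycling endosomes, and CLEC-2 partners were higher for 2 and lower for 1 of 6.

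In juvenile sinusoidal-like cells, beside 36.2% of all genes, lysosomal genes were lower for 17 and higher for 5 of 38. Ctsc stood at 75.5 and 81.1 against 160.1 and 161 CPM (-1.03, SE 0.06, adjusted p = 5.4e-16) and Cst3, the cathepsin inhibitor cystatin C, at 472 and 466 against 814 and 827 CPM (-0.81, SE 0.04, adjusted p = 2.3e-19), while Lgmn was higher. Endocytic genes were higher for 12 and lower for 6 of 28, with Ap2a2 at 0.92 and Ehd3 at 0.75. Clearance receptors were higher for 6 and lower for 9 of 20, with Scarb1, a lipoprotein receptor, at 0.69 and Gpr182 at -0.44. Nucleases were lower for 4 of 10 (Samhd1 -0.78), Fc receptor genes higher for 1 and lower for 2 of 5 (Fcer1g -1.30), and CLEC-2 partners higher for 3 and lower for 2 of 6.

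With PTH, beside 8.37% of all genes, 6 lysosomal genes of 38 were higher, with Ctsh at 126 and 131 against 98.2 and 94.9 CPM (0.43, SE 0.06, adjusted p = 4.6e-06) and Ctsl at 8870 and 8492 against 6881 and 6887 CPM (0.33, SE 0.04, adjusted p = 6.0e-09), and 2 were lower. The scavenger receptor gene Cd36 fell to 509 and 529.5 from 712 and 740.3 CPM (-0.48, SE 0.04, adjusted p = 9.3e-11). In all, 3 nucleases of 10 were higher, clearance receptors were higher for 1 and lower for 2 of 20, endocytic genes higher for 2 and lower for 1 of 28, Fc receptor genes lower for 1 of 5, and CLEC-2 partners higher for 2 and lower for 1 of 6. With alendronate, beside 17.1% of all genes, Ehd3 rose to 241 and 243 from 110.1 and 112 CPM (1.12, SE 0.05, adjusted p = 8.2e-19), and 10 endocytic genes of 28 were higher and 2 lower. Lysosomal genes were lower for 12 and higher for 3 of 38, nucleases lower for 4 of 10, clearance receptors higher for 2 and lower for 5 of 20, Fc receptor genes lower for 2 of 5, and CLEC-2 partners higher for 1 and lower for 1 of 6.

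Over the 49 sums of type and library, Stab2 and Mrc1 were the pair of members with the most similar pattern (Pearson's r = 0.968 of log2 CPM), and Dnase1l3 and Clec1b the pair with the least (0.341). These sums share libraries and types, so the values describe them only. The nearest genes were then sought outside the members, among genes with a mean of at least 20 CPM. The 2 nearest to Stab2 were Adamts5 (0.975) and Col6a3 (0.963), to Mrc1 Abcc9 and Chst2 (both 0.976), and to Lgmn Ctsb (0.973) and Cd63 (0.958). Those nearest to Fcgr2b were Nr2f1 (0.873) and Serpina3f (0.870), and to Clec1b Calr (0.761) and Tigd2 (0.760). Flt4 was close to Stab1 (0.959) and Crygn to Dnase1l3 (0.933). Adamts5 and Flt4 are among the markers that named the sinusoidal-like clusters.

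The promoters of the most similar pair and of the gene that stood apart are shown as RefSeq windows of 300 bases (250 before and 50 after the start site, GRCm38.p6), written 5′ to 3′ on the strand of the gene. Capitals mark matches to AGGAAG or its reverse CTTCCT, the core of sites of ETS factors, and to AGATAA or TTATCT, of GATA factors. The windows are chr10:87007893-87008192 on the minus strand, chr2:14229164-14229463 on the plus strand and chr6:129397047-129397346 on the plus strand.
Stab2: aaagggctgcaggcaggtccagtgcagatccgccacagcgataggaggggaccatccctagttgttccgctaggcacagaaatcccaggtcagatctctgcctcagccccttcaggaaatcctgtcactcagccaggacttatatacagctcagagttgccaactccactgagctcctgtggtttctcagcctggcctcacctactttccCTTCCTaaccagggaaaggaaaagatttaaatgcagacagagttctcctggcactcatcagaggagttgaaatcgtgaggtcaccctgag
Mrc1: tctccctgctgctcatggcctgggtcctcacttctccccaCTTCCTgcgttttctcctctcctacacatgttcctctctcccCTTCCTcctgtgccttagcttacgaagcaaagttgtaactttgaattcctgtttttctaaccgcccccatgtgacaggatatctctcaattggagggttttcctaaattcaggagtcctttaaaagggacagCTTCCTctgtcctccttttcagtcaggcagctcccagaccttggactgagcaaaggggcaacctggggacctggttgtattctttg
Clec1b: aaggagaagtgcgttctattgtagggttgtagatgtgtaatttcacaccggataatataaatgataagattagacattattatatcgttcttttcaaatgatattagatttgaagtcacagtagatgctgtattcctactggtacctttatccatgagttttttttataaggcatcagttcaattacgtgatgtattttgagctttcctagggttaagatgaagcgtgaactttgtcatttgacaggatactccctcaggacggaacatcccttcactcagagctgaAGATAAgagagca
The ETS letters were found once for Stab2, at -40 bases from the start site, and 3 times for Mrc1, at -210, -168 and -36, in each case on the other strand, and they occur in 35.35% of the 32851 promoter windows of this length. They were also found for Stab1, at -116, and not for Fcgr2b, Lgmn or Clec1b. The GATA letters occur in 11.2% of windows and were found for Clec1b only, at 37 bases past the start site. These searches covered the windows of 6 members, without Dnase1l3.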

How the data were processed

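The authors deposited, for each of 10 libraries, a table of unique molecular identifier (UMI) counts per gene and cell. Per the labels and the submitters' processing notes, reads of 10x Chromium 3′ libraries were handled with UMI-tools 1.1.2, STAR 2.7.10a and featureCounts of Subread 2.0.3 on mm10. The annotation release and strand setting are not given in the sources used here. Genes with names starting with U were present in the aged tables only (1.52 and 1.53% of their UMIs), and 253 were removed. No doublet caller was run.

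Cells with 500 to 6000 genes and under 25% mitochondrial UMIs were kept. Libraries were integrated by anchors in Seurat 5.3.0 (2000 variable genes without the members and 30 principal components) and clustered at resolution 0.5, and clusters were named from fixed markers. A cell type by library sum needed 20 cells. Sums were tested with edgeR 4.0.16 (quasi-likelihood, TMM scaling, two-sided, Benjamini-Hochberg adjustment over all genes tested) in R 4.3.3, with the library as block between types and without a block between groups. Alternatives were DESeq2 1.42.0, RLE size factors, no filter on low counts, resolutions 0.3 and 0.8, no integration, types from a gate on marker UMIs alone, stricter cell filters (1000 genes, 10% mitochondrial), each library left out, the replicate number as block, only the 2 groups compared and, chosen after seeing the data, shallow clusters left out and the alternatives of the interaction fits.

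On simulated counts with 200 genes changed 4-fold, 200 were called between sinusoidal-like and metaphyseal-like cells (of 11234 genes, with 0 unchanged genes called). Between aged and adult, 199 were called (of 12917, with 9 unchanged called). The changed genes had a mean of at least 20 CPM, every gene had the same dispersion, and no library effect was simulated. Smaller changes and changes in genes at lower levels were not simulated. The members and lists were chosen with earlier results of these data known. Genes were named by rule. They were the members and, for each member, the 2 genes outside the members with the highest Pearson's r. Each pathway list gave up to 4 genes with the largest called change between sinusoidal-like and metaphyseal-like cells. It also gave up to 2 in each group contrast (mean of at least 20 CPM). Marker genes were named beside a result. A few genes that the rule or the macrophage list would name are not reported here. Mice were pooled, and p-values measure the spread between libraries only, which may be technical.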

Additional observations from a re-analysis of the deposited data

Results flagged for a closer look

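The results below are those in which the change against adult in another endothelial type differed from the change in sinusoidal-like cells by the interaction test of edgeR (adjusted p under 0.05). Values are differences of log2 fold changes, and no explanation was tested. The 4 groups share the adult libraries.

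In aged bone the arterial-like minus sinusoidal-like difference was -0.46 for Stab1, -3.67 for Stab2, -2.45 for Mrc1, 2.28 for Fcgr2b, -0.52 for Lgmn and -2.99 for Dnase1l3. The metaphyseal-like minus sinusoidal-like difference was -0.98 for Stab2, -0.60 for Mrc1, 2.06 for Fcgr2b, -0.50 for Lgmn, 0.39 for Dnase1l3 and 1.32 for Clec1b. The type R-like minus sinusoidal-like difference was -0.83 for Stab1, -2.11 for Stab2, -2.85 for Mrc1, -1.73 for Lgmn and -1.85 for Dnase1l3. That of Fcgr2b, -4.12, rests on 0 and 1 UMIs in the aged type R-like sums. No expression of Stab2, Mrc1 or Dnase1l3 was read above from arterial-like or type R-like levels.

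With PTH the metaphyseal-like minus sinusoidal-like difference was -1.02 for Stab2, -0.93 for Mrc1, -0.47 for Lgmn and -1.17 for Dnase1l3, and the arterial-like one -0.83 for Stab2, -0.74 for Mrc1 and -1.14 for Dnase1l3. With alendronate the arterial-like difference was -1.004 for Stab2, -0.77 for Mrc1, -1.05 for Fcgr2b and -1.16 for Dnase1l3, and the metaphyseal-like difference of Fcgr2b was 0.49. In juvenile bone the metaphyseal-like difference was -2.47 for Fcgr2b and -2.10 for Clec1b, and the arterial-like difference of Clec1b was -2.10.

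With types set by a gate on marker UMIs, all PTH, alendronate and juvenile differences of arterial-like cells lost their call, as did those of metaphyseal-like cells other than Mrc1 with PTH. In aged bone the metaphyseal-like differences of Lgmn and Mrc1 kept it, and those of Clec1b, Fcgr2b, Stab2 and Dnase1l3 did not.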

How the results depend on the processing

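Between sinusoidal-like cells and the other 3 types 6 or 7 of 7 members were called under each alternative run, and between aged and adult sinusoidal-like cells 4 to 7. Without a filter on low counts the genes called rose from 2273 to 3895 between sinusoidal-like and arterial-like and from 1395 to 2502 between sinusoidal-like and metaphyseal-like cells. In sinusoidal-like cells the marker gate and DESeq2 gave 3243 and 2736 genes for juvenile (4881 as reported), 528 and 545 for PTH (1129), and 1243 and 933 for alendronate (2304), with 1 and 3 members for alendronate (5). Leaving out 1 library gave 1302 to 1666 genes and 3 to 5 members for alendronate, 596 to 871 genes for PTH (lowest without PTH replicate 2), 3750 to 3838 for juvenile and 7557 to 8205 for aged. Libraries were not left out of the interaction fits.

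Directions turned in 32 values, and the cause was not tested. Without integration, the aged change in arterial-like cells was 0.55 for Dnase1l3, 1.12 for Mrc1 and 1.01 for Stab2, and its difference from sinusoidal-like cells 1.12 for Dnase1l3, 0.39 for Lgmn, 0.72 for Mrc1, 1.16 for Stab1 and 0.55 for Stab2. In metaphyseal-like cells it was 0.51 for Mrc1 (difference 0.14) and 0.17 for Stab2, and the PTH change of sinusoidal-like Dnase1l3 was 0.071. With the marker gate, alendronate gave -0.090 for Dnase1l3, -0.031 for Mrc1, -0.048 for Stab1 and -0.080 for Stab2 in sinusoidal-like cells, -0.062 for Dnase1l3 and -0.15 for Stab1 in metaphyseal-like cells and a difference of -0.044 for Fcgr2b. The gate also gave -0.33 for Fcgr2b and -0.16 for Stab1 in aged metaphyseal-like cells, a difference of -0.28 for aged Dnase1l3 (-0.048 at resolution 0.3), and -0.014 for Lgmn in juvenile arterial-like cells. The PTH change of Stab2 in sinusoidal-like cells, not called, was -0.018 and -0.044 at resolutions 0.3 and 0.8 and -0.012 without the filter. Leaving out 1 library gave -0.046 to 0.045 for Stab2, -0.020 to 0.16 for Stab1 and -0.087 to 0.054 for Dnase1l3.

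Replicate numbers did not pair the libraries (correlation of deviations from the group means -0.094 to 0.044 over 16 comparisons). With the number as a replicate block, 8716 genes were called for aged, 4875 for juvenile, 1122 for PTH and 2269 for alendronate, and 1 member lost its call, Stab1 in alendronate metaphyseal-like cells (0.18, adjusted p = 0.052).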
